A study of Rattus norvegicus with 10 samples.

Results

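Ccl2, Ccl20, Ccl7, Cxcl1, Cxcl2, Cxcl12 and Cx3cl1 encode 7 rat chemokines. They were followed on 10 single-colour Affymetrix rat arrays hybridised with RNA of A7r5, a smooth muscle line from embryonic rat aorta. All probe sets that the platform annotation assigns to exactly 1 gene, that gene being among the 7, were taken, which gave 9 of the 31099 probe sets in the deposited table, for 7 of 14217 genes: 3 for Cxcl12 and 1 for each of the other 6 genes. The descriptions give all 10 arrays as stably transfected cells, kept in normal oxygen and sampled near 50% confluence in DMEM with 10% serum. The labels disagree on the 2 empty vector arrays: their titles and source names call the expression native, with no transfection, while the transfection field and the description say empty vector. They are called empty vector here, and each comparison with them rests on that reading. The 5 groups of 2 arrays differed in the transfected construct, which was empty vector, wild-type human BMPR2, or BMPR2 with a 2579-2580delT change in the cytoplasmic tail (CD mutant), a C994T change in the kinase domain (KD mutant) or a T354G change in the extracellular domain (ED mutant). BMPR2 binds bone morphogenetic proteins and signals as a type II serine/threonine kinase receptor. All the cells kept their own rat Bmpr2 gene, and the labels do not say whether a line was a clone or a pool, or whether a group's arrays came from separately grown cells. P-values here thus measure only how far these arrays vary, which may be technical.

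Chemokines are small secreted proteins that direct the migration of leukocytes through G protein-coupled receptors. Their classes are named for the spacing of the first conserved cysteines, which adjoin in the CC class, are parted by a single residue in the CXC class and by several in the CX3C class. Vascular smooth muscle cells make Ccl2 in response to injury and inflammatory cytokines, and the Ccl2 protein draws monocytes into the vessel wall. Ccl2, Ccl20, Cxcl1 and Cxcl2 are known targets of NF-kB, a family of transcription factors activated by inflammatory signals.

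The chemokines were chosen by the measured differences of Ccl2 and Ccl20, which stood lower with receptor constructs than with empty vector on the same arrays. Levels and differences of all members are therefore given as a description, with no p-value. Counts of members that passed the fit over all probe sets are set beside the share of all probe sets, and nothing is read from them. P-values are given for genes of the pathway that are not members.

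The region upstream of the gene start is shown for Ccl20, whose level differed among the groups, for Cxcl1 and Cxcl2, which were dim on all arrays, and for Cxcl12, which was bright on the KD mutant arrays only. The sequences are from RefSeq on the build GRCr8 and cover the 250 bases before the annotated start, written 5′ to 3′ on the strand of the gene. Capitals mark matches to the NF-kB consensus on either strand. They lie at chr9:91836909-91837158, plus strand for Ccl20, at chr14:17479322-17479571, minus strand for Cxcl1, at chr14:17467256-17467505, minus strand for Cxcl2, and at chr4:152060531-152060780, plus strand for Cxcl12.
Ccl20: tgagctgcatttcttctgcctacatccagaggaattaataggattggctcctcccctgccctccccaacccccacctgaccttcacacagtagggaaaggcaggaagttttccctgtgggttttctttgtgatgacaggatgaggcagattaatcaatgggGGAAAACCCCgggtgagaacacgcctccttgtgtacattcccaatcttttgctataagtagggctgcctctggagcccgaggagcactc
Cxcl1: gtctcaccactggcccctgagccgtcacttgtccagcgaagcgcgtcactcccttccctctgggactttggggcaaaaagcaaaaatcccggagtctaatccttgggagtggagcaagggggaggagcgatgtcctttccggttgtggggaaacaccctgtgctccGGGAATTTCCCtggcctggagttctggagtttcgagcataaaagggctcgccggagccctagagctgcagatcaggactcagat
Cxcl2: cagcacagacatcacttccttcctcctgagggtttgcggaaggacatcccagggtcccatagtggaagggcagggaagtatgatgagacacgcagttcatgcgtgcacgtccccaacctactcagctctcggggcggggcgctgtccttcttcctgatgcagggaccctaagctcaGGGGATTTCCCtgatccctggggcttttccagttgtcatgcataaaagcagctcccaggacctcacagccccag
Cxcl12: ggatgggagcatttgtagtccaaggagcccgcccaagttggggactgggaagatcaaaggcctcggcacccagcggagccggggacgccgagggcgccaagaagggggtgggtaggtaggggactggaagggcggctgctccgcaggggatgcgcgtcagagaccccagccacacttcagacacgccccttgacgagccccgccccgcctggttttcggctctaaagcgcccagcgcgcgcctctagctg

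Of the 7 genes, 6 had a promoter entry that matched by symbol, and Ccl2 had none. The NF-kB consensus occurred upstream of 3 of these 6, Ccl20, Cxcl1 and Cxcl2, and in 3.54% of 33465 rat promoters over the same 250 bases. In Ccl20 the match lay 89 to 80 bases before the start. Cxcl1 and Cxcl2 each had a pair of matches that overlap each other with a shift of 1 base, beginning 84 and 83 bases before the start in Cxcl1 and 74 and 73 bases before it in Cxcl2. A TGANTCA motif, the AP-1 consensus, occurred upstream of Ccl7 and in 6.34% of promoters. TATAAA occurred upstream of Ccl7 and Cx3cl1 and in 12.9% of promoters, and GGCGCC, a GC-rich element, upstream of Cxcl12 and Cx3cl1 and in 8.7%. All motifs were searched on both strands, and a match is a stretch of letters, not a measured binding site. In the RefSeq gene order, Ccl2 and Ccl7 lie side by side on chromosome 10 and Cxcl1 and Cxcl2 on chromosome 14, with 0 protein-coding genes between the partners.

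The values are log2 RMA summaries as the authors deposited them. The KD mutant arrays were unlike the other 8: their Pearson correlation with those was 0.709 to 0.719 across probe sets, against 0.992 to 0.996 among the 8. Means over marker lists differed too. The mean log2 level of 9 smooth muscle markers was 7.97 to 8.16 on the KD mutant arrays and 6.29 to 6.46 on the others, that of 7 fibroblast markers 7.55 to 7.65 against 4.62 to 4.86, and that of 7 epithelial markers 5.61 to 5.64 against 7.25 to 7.70. Single markers did not all follow: Smtn, of smooth muscle, averaged 8.34 there and 10.41 on the others, and Pdgfra, of fibroblasts, 4.25 and 5.55. Log2 4.82, the 40th percentile of all values, served as the filter level. On the 8 other arrays, 5 to 6 of 9 smooth muscle markers reached it on both arrays of a group. Smtn and Cald1 (10.4) were bright, and Myh11 (6.79), Acta2 (6.26) and Des (6.09) averaged above it. Tagln (4.98), Cnn1 (4.39), Myocd (4.26) and Lmod1 (3.86) were near or below it, so the labelled cell type had only part of its markers. Of 7 epithelial markers 5 reached it, with Cdh1 at 9.71 and Krt19 at 9.41, while Epcam (3.78) and Cldn4 (3.36) did not. Of 10 macrophage and leukocyte markers 5 reached it in each of those groups and 3 in the KD mutant. Lyz2 averaged 6.53, Cd68 5.96 and Cd14 5.80 on the 8 arrays (Cd14 8.87 on the KD mutant arrays), while Ptprc (3.40), Adgre1 (3.35) and Csf1r (4.43) were below it. Of 6 endothelial markers 0 to 1 reached it. Of 7 fibroblast markers 4 reached it in the KD mutant and 3 to 4 in the other groups. The rat Bmpr2 probe sets do not check the human transgene. The number of arrays limits the precision.

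Brightness decided which members could be read. Beside the filter level of 4.82, the 60th percentile of all values, 5.78, served as a stricter level. Ccl2 was above both on all 10 arrays. Ccl20 and Cx3cl1 were above both on all 8 arrays other than the KD mutant, and between them on the KD mutant arrays. Ccl7 and the Cxcl12 probe set 1369633_at passed the lower level on all those 8 arrays, but the higher on 1 and 0 of them. The Cxcl12 probe set 1387655_at passed the lower level on 5 of the 8, and 1388583_at on 0. Cxcl2 lay just inside the filter, with 3 arrays at or above 4.82 and a highest value of 4.90. Cxcl1 lay just outside it, with 0 arrays and a highest value of 4.70, and was the 1 member probe set that was not tested. Differences of Cxcl1, Cxcl2 and, without the KD mutant, Cxcl12 are thus between values at or near the filter level, where their size is not measured exactly.

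**Figure D1:**
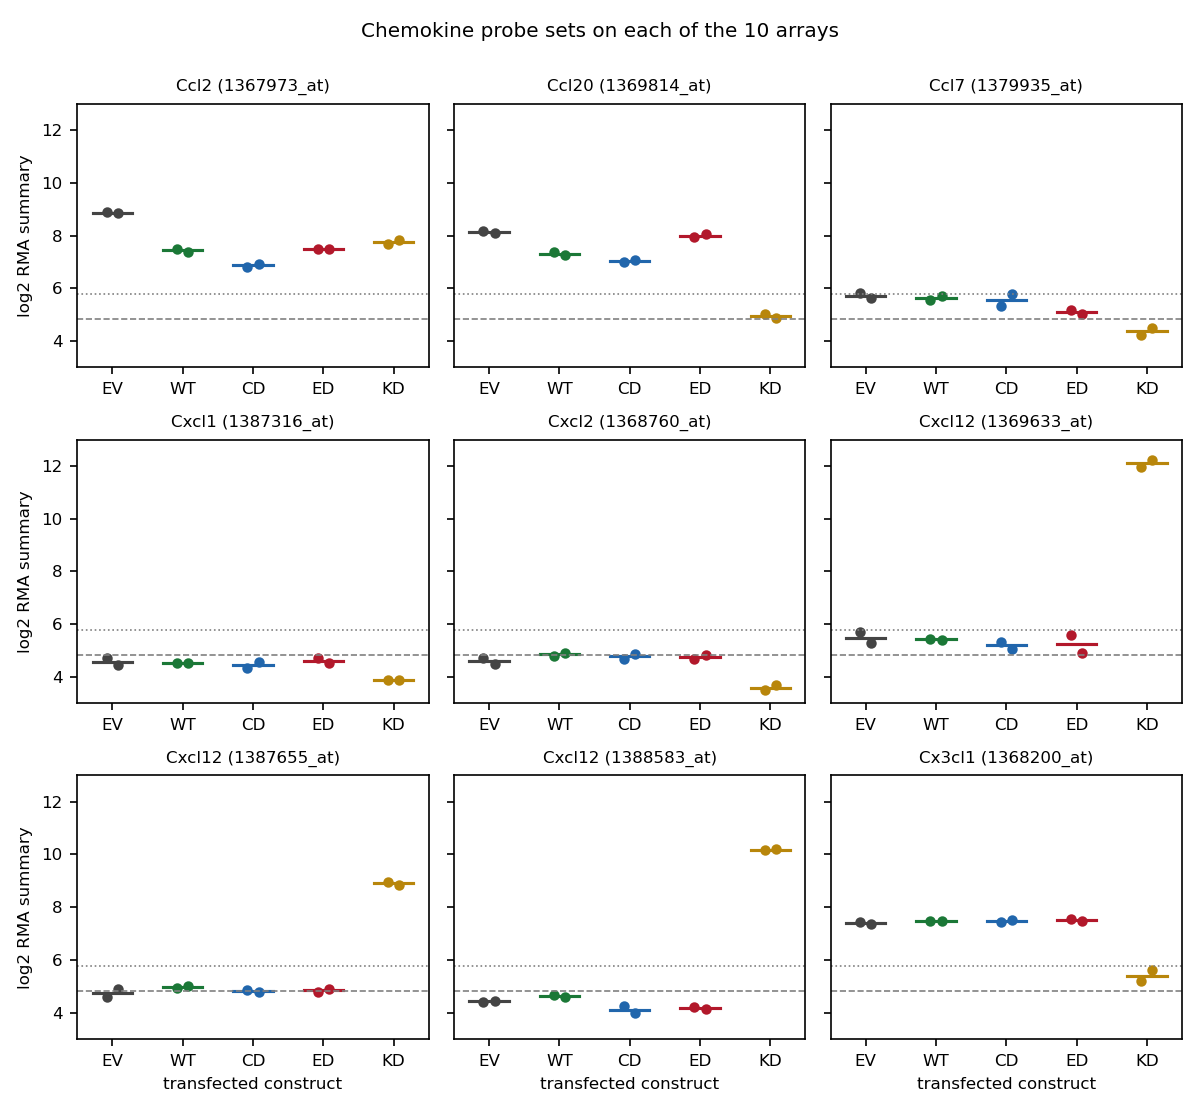
Log2 RMA summary (vertical axis) of the 9 chemokine probe sets on the 10 arrays, by transfected construct: EV, empty vector; WT, wild-type BMPR2; CD, ED and KD, the mutants. Points are arrays and bars group means; the dashed and dotted lines mark log2 4.82 and 5.78. Ccl2 is highest with empty vector, the 3 Cxcl12 probe sets are bright on the KD mutant arrays, and Cxcl1 stays under the dashed line on all arrays.

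Ccl2, the monocyte chemoattractant, was highest with empty vector. Its log2 level there was 8.88 and 8.84. Wild-type BMPR2 arrays read 7.50 and 7.38, CD mutant arrays 6.80 and 6.94. ED mutant arrays read 7.48 and 7.49, KD mutant arrays 7.69 and 7.82. Both empty vector arrays exceeded all 8 arrays with a receptor construct. From the highest group to the lowest, the order was empty vector, KD mutant, ED mutant, wild type and CD mutant. The ED mutant and wild type overlapped and differed by 0.04, less than the SD of 0.09 in wild type. The other steps between neighbours, 1.10, 0.27 and 0.57, exceeded the larger SD of each pair, which was at most 0.10, although the step of 0.27 below the KD mutant depends on how the arrays are scaled. In bulk RNA, fewer cells that express a gene and less of its RNA per cell cannot be told apart.

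Wild-type BMPR2 minus empty vector gave a log2 difference of -1.42 ± 0.104 for Ccl2 (moderated SE of the limma fit, n = 2 arrays a group), 2.67-fold lower. The CD mutant differed from empty vector by -1.99 ± 0.104, 3.96-fold, and the ED mutant by -1.37 ± 0.104, 2.59-fold. By size these ranked 1, 1 and 4 among the differences of 22502 tested probe sets, in that order. Such ranks follow from how the members were chosen, and nothing is read from them. The CD mutant differed from wild type by -0.57 ± 0.104, 1.48-fold, which ranked 13 of the 22502, in a comparison where 0 probe sets passed in limma. The ED mutant stood 0.61 ± 0.104 above the CD mutant, 1.53-fold. All 3 comparisons with empty vector share its 2 arrays.

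Ccl20, the ligand of the receptor CCR6 on dendritic cells and lymphocytes, did not follow the same order. Empty vector arrays read 8.16 and 8.10, ED mutant arrays 7.95 and 8.05. Wild-type BMPR2 arrays read 7.38 and 7.25, CD mutant arrays 7.01 and 7.07, and KD mutant arrays 5.03 and 4.88. The ED mutant thus stood next to empty vector, wild type and the CD mutant lower, and the KD mutant arrays near the filter level. Empty vector and the ED mutant differed by 0.13 with SDs of 0.04 and 0.07. The 5 groups did not overlap for Ccl20, and the steps down from the ED mutant were 0.69, 0.28 and 2.08.

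Wild-type BMPR2 minus empty vector gave -0.82 ± 0.105 (SE) for Ccl20, 1.76-fold lower, and the CD mutant minus empty vector -1.10 ± 0.105, 2.14-fold lower. By size, the CD mutant's difference ranked 2 of the 22502 probe sets, after Ccl2, and that of wild type 20. For the ED mutant it was -0.13 ± 0.105, or 1.10-fold, with rank 9232. High ranks here too follow from the choice of members, and nothing is read from them. The ED mutant stood 0.69 ± 0.105 above wild type (1.61-fold) and 0.96 ± 0.105 above the CD mutant (1.95-fold). Epithelial markers were also higher in the ED mutant than in wild type and the CD mutant, with a mean log2 level of 7.64 to 7.70 against 7.25 to 7.38. On the empty vector arrays that mean was 7.32 to 7.33. The part of these markers in the Ccl20 values was not tested.

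Set side by side, the ED mutant had Ccl2 at the level of wild type but Ccl20 near that of empty vector, while the CD mutant was the lowest of the 4 groups for both. Over the 8 arrays without the KD mutant the Pearson correlation of Ccl2 with Ccl20 was 0.801, and over all 10 it was 0.233. These points are pairs of arrays in 4 or 5 groups, so the value describes the groups. Poly-A spike controls, which report RNA labelling, varied among the arrays too. They averaged 7.4 with empty vector, 7.41 with wild type, 7.72 in the ED mutant and 8.01 in the CD mutant. The 2 wild-type arrays alone, at 7.04 and 7.79, lay further apart than these means. The part of the spike controls in the Ccl2 and Ccl20 levels was not tested.

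**Figure D2:**
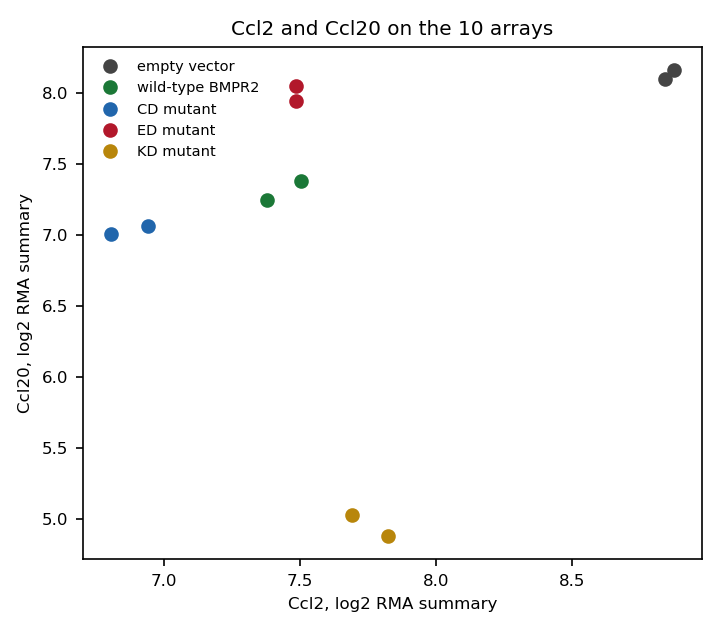
Log2 RMA summary of Ccl2 (horizontal axis) against Ccl20 (vertical axis); each point is 1 of the 10 arrays, coloured by group. Empty vector lies at upper right, wild type and the CD mutant lower on both axes, the ED mutant left but high, and the KD mutant arrays at the bottom with Ccl20 at 5.03 and 4.88.

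Ccl7, a CC chemokine of the same monocyte-attracting group as Ccl2 and its neighbour on chromosome 10, was dimmer and had another pattern. Empty vector arrays read 5.83 and 5.61, wild-type arrays 5.57 and 5.69, CD mutant arrays 5.33 and 5.77. ED mutant arrays read 5.18 and 5.03, KD mutant arrays 4.24 and 4.502. Empty vector, wild type and the CD mutant overlapped, the ED mutant lay below all 3, and the KD mutant arrays lay below the filter level. The ED mutant differed by -0.62 ± 0.155 (SE) from empty vector, -0.53 ± 0.155 from wild type and -0.44 ± 0.155 from the CD mutant. The difference of wild type from empty vector, -0.09 ± 0.155, was smaller than its SE. Over the 8 arrays without the KD mutant, Ccl7 correlated with Ccl2 at 0.355 and with Ccl20 at -0.204.

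Cxcl1 and Cxcl2, members of the CXC class that bind CXCR2 and attract neutrophils, were dim throughout. Without the KD mutant, Cxcl1 ranged from 4.34 to 4.70 with a median of 4.53, and on the KD mutant arrays it was 3.88 and 3.87. Its 4 groups other than the KD mutant all overlapped, with means at most 0.17 apart. Cxcl2 ranged from 4.49 to 4.90 with a median of 4.77 on the 8 arrays, and read 3.50 and 3.68 on the KD mutant arrays. Its means with wild type and empty vector were 4.86 and 4.61, on either side of the filter level, and their arrays did not overlap. At this signal a difference between these 4 groups in Cxcl1 or Cxcl2 was not detectable.

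Cxcl12, a CXC chemokine that binds CXCR4 and holds haematopoietic and progenitor cells in place, had its highest values on the KD mutant arrays. Probe set 1369633_at read 11.97 and 12.22 there and 4.90 to 5.69 on the other 8 arrays. Probe set 1387655_at read 8.97 and 8.83 against 4.61 to 4.999, and 1388583_at 10.18 and 10.20 against 3.98 to 4.68. All 3 probe sets thus placed the KD mutant arrays far above the rest. Among the other 4 groups, 1388583_at had the widest span of means, 0.53, with 4.64 in wild type and 4.11 in the CD mutant, both below the filter level. The means of the other probe sets spanned 0.30 and 0.22, and their order of groups differed from that of 1388583_at: empty vector was highest by 1369633_at and lowest by 1387655_at.

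Cx3cl1, the membrane-anchored chemokine fractalkine, was bright and nearly level in 4 groups. Empty vector arrays read 7.44 and 7.36, wild-type arrays 7.49 and 7.50, CD mutant arrays 7.46 and 7.51, and ED mutant arrays 7.56 and 7.50. Group means spanned 0.13 over these 4, against 1.99 for Ccl2 and 1.10 for Ccl20. Against empty vector the log2 differences were 0.09, 0.08 and 0.13 for wild type, the CD and the ED mutant, each with an SE of 0.13. On the KD mutant arrays Cx3cl1 was 5.19 and 5.62, below the other 8.

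**Figure D3:**
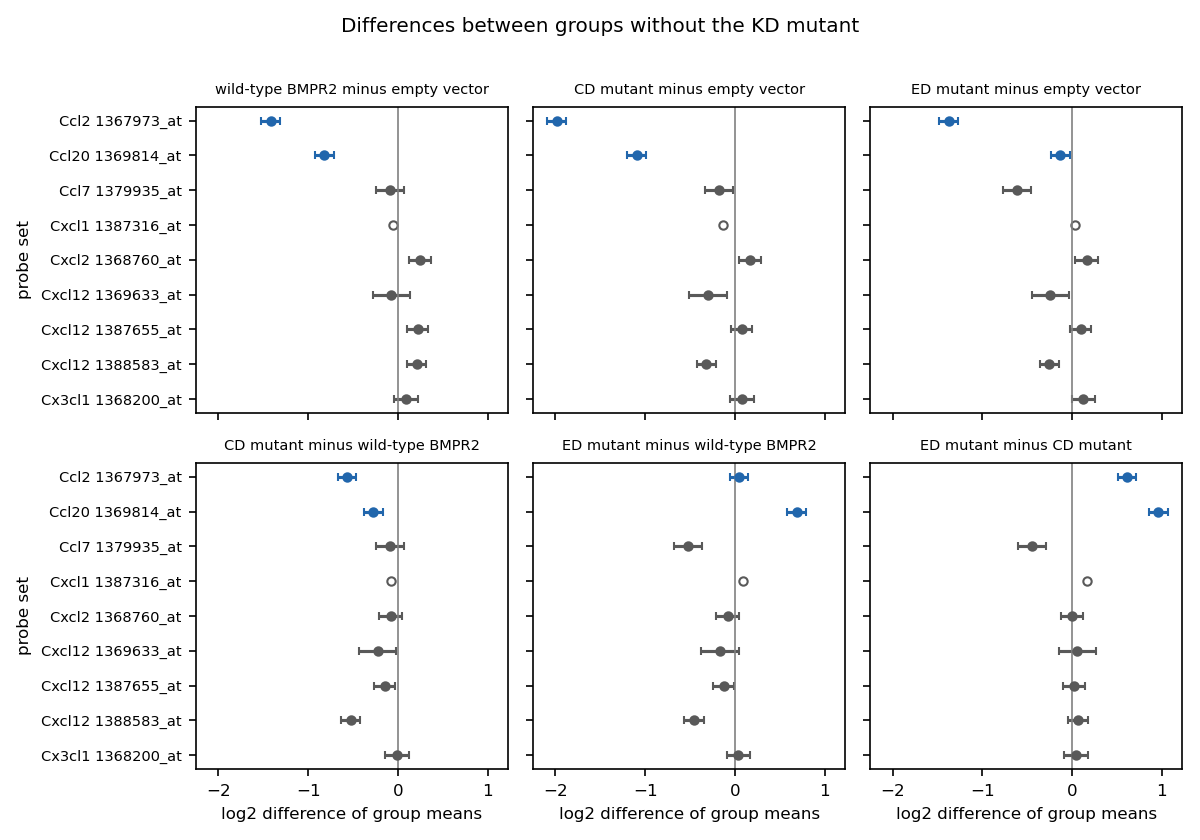
Log2 difference of group means (horizontal axis) for each chemokine probe set (vertical axis) in the 6 comparisons without the KD mutant; bars are ± 1 moderated SE from limma, and the open circle is Cxcl1, which was below the filter. Ccl2 and Ccl20 (blue) lie left of 0 against empty vector, nearest to it for Ccl20 in the ED mutant at -0.13, and the bars of Cx3cl1 stay near 0.

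Set against the whole table, 8 of the 9 member probe sets were tested. With wild-type BMPR2 against empty vector 2 of the 8 had an adjusted p under 0.05 in limma, Ccl2 and Ccl20, where 0.0133% of all tested probe sets did. In the CD mutant against empty vector the same 2 did (0.111% of all), and in the ED mutant 1, Ccl2 (0.529% of all). Against wild type, 0 of the 8 passed in the CD mutant (0% of all by limma; at an unadjusted p under 0.05 there were 3 of 8, and 784 of 22502 in all) and 1, Ccl20, in the ED mutant (0.164% of all). Between the ED and CD mutants 2 passed, Ccl2 and Ccl20 (0.351% of all). Without any 1 of the 4 arrays compared, the count was 1 in wild type and 1 in the CD mutant against empty vector, 0 in the ED mutant against wild type, and 0 to 1 between the ED and CD mutants. Since these results were known when the members were chosen, nothing is read from these counts. Non-overlap of the pairs of arrays was common in the whole table: from wild type to empty vector it held for 6 of 8 members and 42% of all tested probe sets, and in the CD mutant against empty vector for 4 of 8 and 41.1%. In the ED mutant it held for 5 of 8 against empty vector (45% of all) and 4 of 8 against wild type (42.1%). From the CD mutant to wild type it held for 5 of 8 (34.1%), and from the ED to the CD mutant for 3 of 8 (41%).

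The median log2 difference of the 8 members was 0.01 with wild type against empty vector, -0.24 for the CD and -0.19 for the ED mutant. Over all tested probe sets it was 0.00 in each of these. The member medians include Ccl2 and Ccl20, whose differences chose the members, and the dim Cxcl12 probe sets, so nothing is read from them. Without Ccl2 and Ccl20, the member differences from empty vector reached at most 0.62 in size, that of Ccl7 in the ED mutant.

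On the KD mutant arrays against wild type, 8 of 8 tested members passed in limma where 89.6% of all probe sets did, and 8 of 8 had arrays that did not overlap where 93.8% of all did. The Cxcl12 probe set 1388583_at was tested only through the KD mutant arrays, since 0 of the other 8 reached the filter level. Nothing is read from these counts. The median difference over all tested probe sets was -0.56, or -0.46 after quantile normalization and -0.10 after centring, and that of the 8 members was -0.47. Higher than in wild type were the 3 Cxcl12 probe sets, and Ccl2, by 0.32 ± 0.104. For Cxcl12 the log2 differences were 6.67 (1369633_at) and 3.93 (1387655_at). For 1388583_at, whose wild-type level was below the filter level, the KD mutant mean lay 5.37 above that level, taken as the lower bound of the difference. Lower were Ccl20 (-2.36), Cx3cl1 (-2.08), Cxcl2 (-1.26) and Ccl7 (-1.26). Cxcl2 and Ccl7 were below the filter level on the KD mutant arrays, so the size of these differences is not measured exactly. The Ccl2 difference turned with the scaling: it was -0.28 after quantile normalization of all arrays and 0.71 after centring each array on its median. The directions of the Cxcl12 probe sets, Ccl20, Ccl7 and Cx3cl1 were the same under these scalings, and Cxcl2 was then not tested. The markers of smooth muscle, fibroblasts and epithelium given above moved with these values, as did the poly-A spike controls, which averaged 6.49 on the KD mutant arrays and 7.41 in wild type, and their part was not tested.

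Of 9 receptors read, 6 reached the filter level on all 8 arrays other than the KD mutant, and Ccr2, Cxcr2 and Cxcr4 did not. Ccr2, the receptor of Ccl2 and Ccl7, lay at 2.79 to 3.36 on the 8 arrays and at 2.38 to 2.64 on the KD mutant arrays, below the filter level on all. Ccr6, which binds Ccl20, lay at 5.42 to 5.70 and on the KD mutant arrays at 4.005 to 4.103. Cxcr2, for Cxcl1 and Cxcl2, and Cxcr4, for Cxcl12, reached the filter level on 2 of the 8 arrays each. Cx3cr1, for Cx3cl1, lay at 5.44 to 5.68. Ccr1, which binds Ccl7, lay at 5.27 to 5.80. Ackr1 and Ackr2, scavenging receptors that bind inflammatory chemokines, lay at 5.41 to 5.90 and 6.21 to 6.59. Ackr3, an atypical receptor that takes up Cxcl12, lay at 6.05 to 6.59 on the 8 arrays and at 7.47 and 7.72 on the KD mutant arrays, where Cxcl12 was also high. Ackr3 was 1.43 higher there than in wild type (adjusted p = 1.52e-07 in limma), and stayed higher under both other scalings, by 0.95 and 1.83.

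The other genes of the pathway were read from 4 lists that hold no member, with 1 probe set per gene. Of 15 other chemokine ligands, 14 chemokine receptors, 20 NF-kB pathway genes and 18 inflammatory cytokines and NF-kB targets that were tested, 0 of 67 passed in any of the 6 comparisons without the KD mutant, by limma or by limma with an intensity trend and robust variance. At an unadjusted p under 0.05 there were 5 (7.46% of the 67, against 6.68% of all genes) in wild type, 4 (5.97%, against 9.35%) in the CD and 4 (5.97%, against 12.8%) in the ED mutant compared with empty vector. Compared with wild type there were 1 (1.49%, against 3.06%) in the CD and 3 (4.48%, against 8.53%) in the ED mutant, and between the ED and CD mutants 5 (7.46%, against 10.2%). Among all 12040 genes the share that passed after adjustment was 0.0249%, 0.158% and 0.706% against empty vector, 0% and 0.241% against wild type, and 0.507% between the ED and CD mutants. The log2 differences of the 67 genes from empty vector lay between -0.40 and 0.39 with wild type, -0.26 and 0.40 in the CD, and -0.32 and 0.43 in the ED mutant. Their medians were 0.04, 0.05 and 0.02, beside -0.01 over all genes in each.

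Among these lists, the lowest adjusted p belonged to Ackr3 in the ED mutant, at 6.54 ± 0.07 (SD, n = 2) against 6.11 ± 0.08 with empty vector (adjusted p = 0.141 in limma). Cxcr1, a neutrophil chemokine receptor, read 4.90 ± 0.14 in the ED mutant and 5.34 ± 0.33 in the CD mutant (adjusted p = 0.398), and Cxcr4 4.88 ± 0.12 in the CD mutant against 4.49 ± 0.02 with empty vector (adjusted p = 0.405). Nfkbia encodes the NF-kB inhibitor IkB-alpha and is itself an NF-kB target. It read 8.09 ± 0.10 with empty vector, 7.75 ± 0.07 with wild type, 7.82 ± 0.14 in the CD and 7.77 ± 0.11 in the ED mutant, where the difference was -0.32 ± 0.11 (SE, adjusted p = 0.286). Map3k7, the kinase TAK1, and Tnip1, an NF-kB inhibitor, stood 0.31 and 0.30 above empty vector in the ED mutant (adjusted p = 0.374 and 0.473 in limma). Map3k7 read 4.58 with empty vector and 4.89 in the ED mutant, on either side of the filter level.

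Of the cytokines and targets, Icam1, an adhesion molecule for leukocytes, read 5.62 ± 0.07 in the ED mutant and 5.94 ± 0.000368 in the CD mutant (adjusted p = 0.331). Csf1, the macrophage growth factor, was bright, at 11.27 ± 0.17 and 11.62 ± 0.17 in the same groups (adjusted p = 0.347). Tlr2, a receptor for bacterial lipoproteins, differed by -0.23 between the ED mutant and empty vector (adjusted p = 0.556). Of the other ligands, Ccl19, Ccl3 and Ccl5 came nearest to the test, with log2 differences of 0.23, 0.22 and -0.25 and adjusted p from 0.518 to 0.615. Csf1, Tnip1 and Nfkbia were well above the filter level, so their values were readable, unlike those of Ccl19, Cxcr4 and Map3k7.

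**Figure D4:**
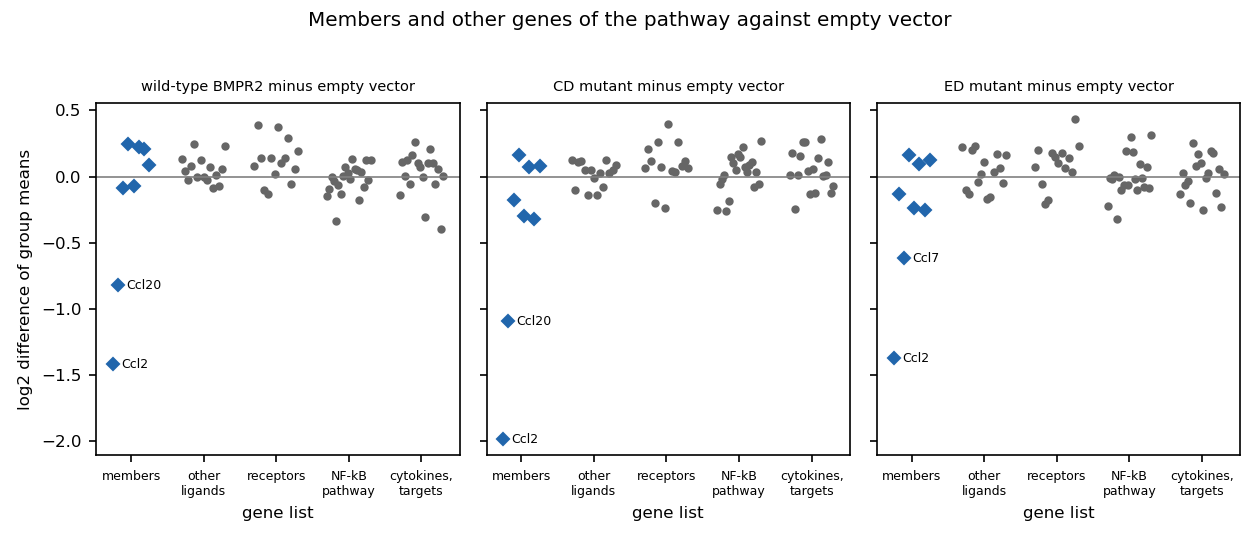
Log2 difference from empty vector (vertical axis) with wild type, the CD and the ED mutant, for the 8 tested chemokine probe sets (diamonds) and the genes of the 4 pathway lists (points), spread sideways for legibility. The points lie between -0.40 and 0.43 in all 3 panels, while Ccl2 lies at -1.42, -1.99 and -1.37. Ccl2 was chosen by such differences, so nothing is read from the contrast.

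On the KD mutant arrays against wild type, 17 of the 67 pathway genes rose and 45 fell in limma. Over all genes 88.9% passed, 36.1% higher and 52.8% lower, with a median difference of -0.42, against -1.28 for the 67. Ikbkb, Il6, Myd88, Ptgs2 and Tlr4 were tested only through the KD mutant arrays, with 0 or 1 of the other 8 at the filter level, and without these 5 there were 12 rises and 45 falls among 62. Of the 15 other ligands 14 fell and 1 rose, Cxcl16, a membrane-bound ligand of CXCR6, by 1.30 (adjusted p = 4.07e-07). Of the 14 receptors 13 fell and 1 rose, Ackr3. Most ligands and receptors that fell had KD mutant means below the filter level, such as Ccl3 (4.09), Ccl22 (3.99) and Ccr6 (4.05). The size of these falls is thus not measured exactly. Only Ccl17, Ccl27, Cxcl3, Ppbp and Cxcr5 fell and stayed above that level. The NF-kB pathway split into 8 rises and 8 falls, or 6 rises and 8 falls among 18 without Ikbkb and Myd88. With all 20 genes the split became 7 to 11 after quantile normalization and 12 to 6 after centring on the median. Of the 18 cytokines and targets 7 rose, or 4 of 15 without Il6, Ptgs2 and Tlr4. Icam1, readable in both groups, rose by 1.88 (adjusted p = 4.71e-09). Ptgs2, the inducible cyclooxygenase, and Il6, an acute-phase cytokine, averaged 3.33 and 3.64 on the other 8 arrays. Their KD mutant means, 8.13 and 6.26, lay 3.31 and 1.44 above the filter level, the lower bounds of their differences. Csf1 fell by 2.31 (adjusted p = 3.18e-09). Cxcl16, Ptgs2, Il6, Icam1 and Csf1 kept their direction under both other scalings.

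The genes whose levels ran most like the lead chemokines were taken by Pearson correlation over the 8 arrays without the KD mutant, among 544 named genes whose 4 group means spanned at least 0.5. With Ccl2 they were Clp1, an RNA kinase (r = 0.979), Plaur, the urokinase receptor (0.963), Ebag9 (0.959), Gpr137b (0.959) and Bdnf, a neurotrophin (0.958), and Ccl20 ranked 49th. With Ccl20 they were Abhd2 (0.991), Cdadc1 (0.976), Nrep (0.97), Id2, an inhibitor of differentiation that responds to BMP (0.966), and Maff, a small Maf transcription factor (0.961), and Ccl2 ranked 43rd. Id2 read 11.19, 10.78, 10.45 and 11.06 in empty vector, wild type, the CD and the ED mutant, the same order of groups as Ccl20. Over all 10 arrays the correlation with Ccl20 was 0.969 for Id2 and 0.995 for Maff but -0.76 for Nrep, and that with Ccl2 was 0.837 for Plaur and 0.185 for Bdnf. Each value rests on 4 or 5 groups of 2 arrays, and many genes reach high correlations over so few groups.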

How the data were processed

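RNA of the transfected cells, extracted with a Qiagen RNeasy kit per the labels, was measured on 10 Affymetrix arrays. The authors deposited log2 values from RMA, as the submitters' processing notes name it, with no version. Such summaries compress differences at low signal, and the KD mutant arrays keep a lower median than the rest. Gene names came from the platform annotation and were updated through Entrez identifiers with RefSeq. Probe sets at or above the 40th percentile of the whole table on 2 or more arrays were tested, which left 22502 of 31099, with 57 controls left out. Limma 3.58.1 in R 4.3.3 was fitted to all 10 arrays with 5 group means (5 residual degrees of freedom, 11.4 after moderation), with Benjamini-Hochberg adjustment over all tested probe sets of each of 7 comparisons. All p-values are two-sided.

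The members and the lists were chosen with earlier results of these data known. In the lists, a gene's value is that of its brightest probe set on average. Named are all members and, per list, any gene that passed in the 6 comparisons without the KD mutant and the 3 with the lowest adjusted p over these, with the 5 genes most correlated with Ccl2 and with Ccl20; Cxcl16, Ptgs2, Il6, the receptors of the members, and Icam1, Csf1 and Ackr3 on the KD mutant arrays were named after their values were seen. On simulated data for wild type against empty vector over 22502 probe sets, 26.9% of changes of 0.5 on the log2 scale were recovered, 80.6% of changes of 1 and 100% of changes of 2, with 5 false calls. The simulation held 66 or 67 planted changes of each size, while 3 probe sets passed in the real comparison. The adjustment is milder where many probe sets change, so these shares can overstate recovery in the real data. Alternatives were other filters, quantile normalization, centring, a trended and robust variance, a replicate block, fewer arrays and leaving out each array.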

Additional observations from a re-analysis of the deposited data

How the results depend on the processing

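Over 607 recomputed member differences, 593 moved by less than the SD between replicates, 13 by more, and 1 reversed: Ccl2 on the KD mutant arrays against wild type, -0.28 after quantile normalization. Most of these alternatives could not have moved a difference further. Filters, variance settings, the block and fewer groups leave group means unchanged, and leaving out 1 array of 2 shifts a mean by no more than that SD. Only quantile normalization and centring could do so, and the 593 are no measure of stability. Against empty vector, Ccl2 ranged over the alternatives from -1.48 to -1.36 in wild type, -2.06 to -1.92 in the CD and -1.39 to -1.35 in the ED mutant. Ccl20 ranged from -0.89 to -0.75, -1.13 to -1.07 and -0.19 to -0.08.

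The counts of members that passed rest on the values that chose them and are no support for them. They went from 2 to 1 in wild type against empty vector with no filter, with the replicate block and with only the arrays compared, leaving Ccl2, and from 2 to 1 in the ED against the CD mutant under the same 3 settings, leaving Ccl20. In the ED mutant against wild type the 1 became 0 with only the arrays compared. Leaving out 1 array gave 1 member in wild type, 1 in the CD and 1 in the ED mutant against empty vector, 0 in the CD and 0 in the ED mutant against wild type, 0 to 1 in the ED against the CD mutant, and 6 to 8 in the KD mutant against wild type. Pathway genes that passed stayed at 0 throughout without the KD mutant, and leaving out 1 array gave 57 to 62 in the KD mutant against wild type.

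Counts over all probe sets moved more. Against empty vector wild type had 3, and 1 with no filter, 1 with the block, 1 with only the arrays compared, 68 with trend and robust variance and 1 without any 1 array. The CD mutant had 25, and 8 with no filter, 12 with the block, 2 with only its arrays, 43 without the KD mutant arrays, 144 with trend and robust variance and 1 without any 1 array. The ED mutant had 119, and 198 with the stricter filter, 179 after quantile normalization, 320 without the KD mutant arrays, 493 with trend and robust variance and 19 to 37 without 1 array. Against wild type the ED mutant had 37, and 8 with only the arrays compared, 142 with trend and robust variance and 0 to 1 without 1 array; the CD mutant had 0 in all. The ED against the CD mutant had 79, and 43 with only these arrays, 145 without the KD mutant arrays, 287 with trend and robust variance and 12 to 31 without 1 array. The KD mutant against wild type had 20166, and 17657 to 19553 without 1 array. The causes were not tested. Replicate numbers did not pair the arrays: deviations of same-numbered arrays correlated at -0.03 to 0.14, above 0.1 in 1 of 10 pairs, and the replicate block moved the counts as given.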
